A study of Mus musculus with 6 samples.

Results

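Brat1 and 9 subunit genes of the Integrator complex were followed in spermatogonia labelled as Ddx20 knockout and in controls. The 10 genes are Brat1, Ints1, Ints2, Ints3, Ints4, Ints6, Ints7, Ints8, Ints9 and Ints10, taken by symbol from the 22579 genes of the deposited count table, and all 10 passed the filter on low counts. Integrator is a large nuclear complex that works with RNA polymerase II. It cuts the ends of small nuclear RNAs (the snRNAs of the spliceosome), of enhancer RNAs and of transcripts that stop early, and it also carries a phosphatase that acts on paused polymerase. BRAT1, first known as a partner of BRCA1 and of the kinase ATM, binds the INTS9 and INTS11 cleavage subunits in human cells. DDX20, also called Gemin3, is an RNA helicase of the SMN complex, which loads Sm proteins onto the snRNAs.

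The 6 libraries were mouse cells labelled as THY1-positive spermatogonia, each made from about 1000 cells at day 4. There were 3 libraries labelled as Ddx20 knockout, which the labels also shorten to cKO, and 3 labelled as control. The labels name no strain, deleted exons or Cre driver, give no further allele or treatment, and do not say whether animals were pooled. The 10 genes were chosen by symbol with the knockout and control counts of these same libraries already known, Brat1 having been seen to differ. Their differences between knockout and control are therefore given as a description with no p-value printed. Whether a member passed the threshold in a fit over all genes is stated as part of that description and is no independent test. The further gene lists were also chosen with earlier results of these data known. Their calls and adjusted p values are likewise no independent test.

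Depth ran from 11656130 to 12497967 counted reads in the knockout libraries and from 8428871 to 11893287 in the controls. Ddx20 stood at 11.9, 15.2 and 10.7 CPM (counts scaled to library size by TMM) in knockouts 1, 2 and 3, against 63.8, 36.4 and 40.7 CPM in controls 1, 2 and 3, so that the transcript was reduced to 26.9% of the control mean and still present. Knockout 1 and knockout 2 stood apart as a pair, with a mean chi-square per gene of 1.78, against 12.0 to 104 in the other 14 pairs, where pure sampling noise would give 1. They were kept as separate libraries, and calls of the edgeR fit are also followed with the pair counted as 1 library. Mitochondrially encoded genes took 19.8% to 20.1% of reads in knockouts and 14.0% to 16.9% in controls. Germ cell markers were present in every library, with a summed level of 5012 to 5509 CPM over 10 genes in knockouts and 4087 to 5092 CPM in controls. Dazl made up most of that sum, and the single markers split, with a median log2 fold change of −0.47 and 6 of 10 below 0. Gfra1 (−0.69 ± 0.16, SE) and Tex14 (−0.84 ± 0.19, SE) were called lower by edgeR and Mael (0.79 ± 0.20, SE) higher. Zbtb16, Id4, Sall4 and Thy1 stood at −1.08 ± 0.30, −0.68 ± 0.23, −0.46 ± 0.18 and −0.47 ± 0.38 (SE) without a call. Ddx4, Dazl and Uchl1 stood above 0, at 0.35 ± 0.17, 0.18 ± 0.21 and 0.07 ± 0.17 (SE), also without a call. Of 38 markers of Sertoli, Leydig, myoid, endothelial, macrophage and T cells, 35 were tested, 7 were higher and 0 lower in knockouts by the edgeR test. The 7 were Clu, Inha, Cldn11, Acta2, Actg2, Cd3g and Lck. With knockout 1 and 2 counted as 1 library, none of these 7 and none of the 10 germ cell markers was called by edgeR. In that setting 0.00649% of all genes were called. With the same pair as 1 library, the test of DESeq2 called 3 of the 7 and that of limma-voom 4. Each also called 1 germ cell marker higher. These tests called 5.45% and 3.28% of all genes. The summed level of the 38 was 2070 to 2719 CPM in knockouts and 875 to 1638 CPM in controls. The macrophage marker Lyz2 was its largest part, at 1126, 1261 and 1765 CPM in knockouts 1, 2 and 3. Controls 1, 2 and 3 held 304, 905 and 763 CPM of Lyz2, which edgeR did not call (1.07 ± 0.35, SE). On the log2 scale the median was 0.06 for the 6 macrophage markers. For all 35 tested markers it was 0.62, with 7 of the 35 below 0. Amh and Tagln stayed below 1 CPM in each library. The part of these differences in the values below was not tested.

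Brat1 was the member with the largest difference. The knockouts held 29, 35 and 31 reads of Brat1 and the controls 184, 70 and 140. The counting error alone is wide at such depth, since 29 reads have a 95% exact Poisson interval of 19.4 to 41.6, which covers counting error only. Scaled to library size, the level was 2.70, 3.17 and 2.79 CPM in the knockouts, against 17.6, 6.64 and 10.7 CPM in the controls. Every knockout lay below every control, the knockouts were close to each other, and the controls spread over a wide range with control 1 highest and control 2 lowest. The mean was 2.89 ± 0.254 CPM in knockouts and 11.7 ± 5.52 CPM in controls (SD, n = 3 each), a level 4.04-fold lower in knockouts. The log2 fold change was −2.01 ± 0.41 (SE). In bulk RNA, fewer cells that carry a transcript and less of it per cell cannot be told apart.

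Of the 10 members 1, Brat1, was called lower in knockouts at an adjusted p under 0.05 (edgeR quasi-likelihood test over 14766 genes), and 0 were called higher. Over all genes tested 4.83% were called, 2.8% lower and 2.03% higher, and with the contrast used in the choice of members nothing is read from that count. Unless another setting is named, calls by edgeR are those with all 6 libraries, TMM scaling and the filter on low counts. Over all genes 413 were called lower and 300 higher, against 1152 lower and 226 higher when libraries were scaled by size alone. The call of Brat1 was lost without knockout 1, 2 or 3 in turn, where its log2 fold change was −1.95, −2.07 and −1.99. Those fits called 0.0325%, 0.065% and 0.0194% of all genes, so nearly all calls were lost there. The call of Brat1 was also lost with knockout 1 and 2 counted as 1 library, with a log2 fold change of −2.01 ± 0.52 (SE). In that setting edgeR called 1 gene of 15406, or 0.00649%, while 2150 genes had an unadjusted p under 0.05. Leaving out control 1, the highest control, gave −1.59 and kept the call.

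**Figure D1:**
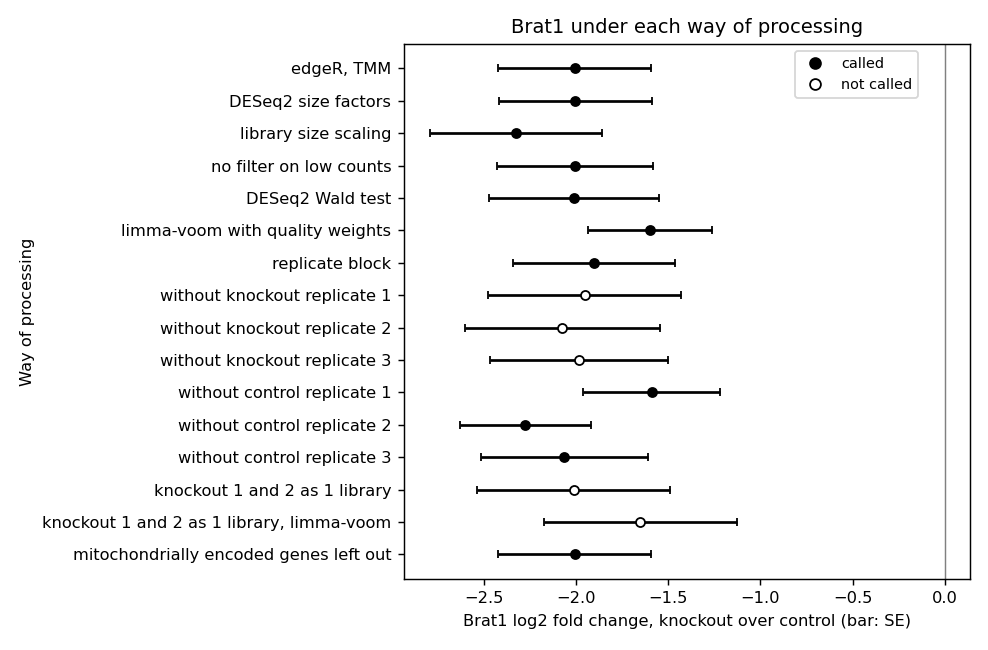
Log2 fold change of Brat1, knockout over control, with its SE, under each way of processing the counts; filled points are called at an adjusted p under 0.05. All values lie between −2.33 and −1.59, and the open points are those with a knockout library left out or with knockout 1 and 2 counted as 1.

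Brat1 (ENSMUSG00000000148) lies on chromosome 5 of mm10 at 140705011 to 140719379 on the plus strand, and Ints1 (ENSMUSG00000029547) on the same chromosome at 139751282 to 139775674 on the minus strand. The start regions of Brat1, the called member, of Ints1, which shares its chromosome, and of Ints6, the member with the most reads, follow, to set their sequences beside the levels. They are RefSeq windows on GRCm38.p6 of 250 bases before to 50 bases after the start, 5′ to 3′ on the gene's strand, at chr5:140704761-140705060 (plus), chr5:139775629-139775928 (minus) and chr14:62761063-62761362 (minus). Capitals mark matches to the motifs given after them.
Brat1: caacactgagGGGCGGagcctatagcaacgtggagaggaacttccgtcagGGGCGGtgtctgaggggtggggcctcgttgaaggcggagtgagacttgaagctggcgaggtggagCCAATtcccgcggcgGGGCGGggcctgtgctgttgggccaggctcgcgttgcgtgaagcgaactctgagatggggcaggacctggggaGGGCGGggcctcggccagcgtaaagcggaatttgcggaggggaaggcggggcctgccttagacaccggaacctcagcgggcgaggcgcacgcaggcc
Ints1: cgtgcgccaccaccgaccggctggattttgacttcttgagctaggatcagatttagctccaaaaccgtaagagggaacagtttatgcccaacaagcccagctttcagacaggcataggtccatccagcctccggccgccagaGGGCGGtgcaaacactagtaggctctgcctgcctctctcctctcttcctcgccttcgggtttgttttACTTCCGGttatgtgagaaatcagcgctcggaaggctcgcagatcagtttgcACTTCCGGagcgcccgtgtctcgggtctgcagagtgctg
Ints6: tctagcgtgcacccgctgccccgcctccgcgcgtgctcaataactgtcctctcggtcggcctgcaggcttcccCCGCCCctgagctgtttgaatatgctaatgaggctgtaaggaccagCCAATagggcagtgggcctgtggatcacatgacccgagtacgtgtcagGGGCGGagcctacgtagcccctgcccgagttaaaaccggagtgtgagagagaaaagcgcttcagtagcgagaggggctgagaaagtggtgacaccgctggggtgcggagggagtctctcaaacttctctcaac

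Windows were found for 7 of the 10 members, Brat1 having 2 that overlap, and were searched on both strands for 7 motifs. The motifs were CCAAT, the GC box GGGCGG, CCGGAAGT of ETS factors, TTTNGCGC of E2F, and the NRF1, YY1 and ZNF143 motifs. No overlap between matches of different motifs was removed. The Brat1 window above held GGGCGG at −240, −200, −120 and −47 and CCAAT at −135, counted as bases from the start. The Ints1 window held GGGCGG at −108 and CCGGAAGT on the other strand at −41 and 11, whereas the Ints6 window held CCAAT at −131 and GGGCGG at −83 and, on the other strand, at −177. CCAAT stood in 7 of the 8 member windows and in 37.4% of all 32851 windows, and GGGCGG in 5 of 8 and in 35.7%. CCGGAAGT stood in 1 of 8 windows (3.89% of all), the NRF1 motif in 2 (4.6%) and TTTNGCGC in 1 (1.38%). The YY1 and ZNF143 motifs had 0 matches among the members (0.633% and 0.286% of all). These are matches of letters and not sites.

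The 9 Integrator genes differed less between the groups than Brat1. Their log2 fold changes ran from −0.49 to 0.39, and 8 of 9 were below 0, as were 49.7% of all genes tested. Their median was −0.40, against 0.01 over all genes. Scaling by library size alone moved the median of all genes to −0.26 and that of the 9 to −0.70. Summed over the 9 genes the level was 449, 424 and 467 CPM in knockouts 1, 2 and 3, against 593, 535 and 548 CPM in controls 1, 2 and 3. The summed level lay lower in each knockout than in each control, with a mean of 446 ± 21.7 CPM in knockouts and 559 ± 30.1 CPM in controls (SD, n = 3 each). Ints6 was its largest part, with means of 144 CPM in knockouts and 198 CPM in controls, followed by Ints7 with 98.6 and 117 CPM. Integrator genes outside the 10, such as Ints11, are not in the sum, so it is no level of the complex. Brat1 amounted to 0.649% ± 0.0869 of that sum in knockouts and 2.06% ± 0.867 in controls (SD, n = 3 each). Of the 10 members, 5 had groups that did not overlap, Brat1, Ints3, Ints6 and Ints8 being lower and Ints10 higher in knockouts, whereas over all genes tested 32.6% did not overlap, 15.8% lower and 16.8% higher.

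**Figure D2:**
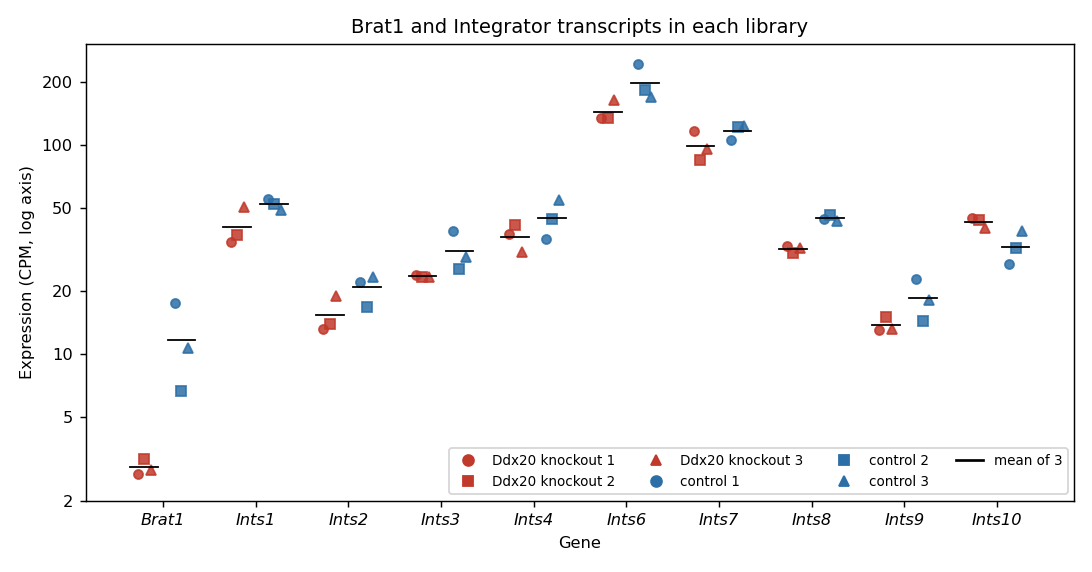
Expression in CPM on a log axis of the 10 genes in each library, knockouts left of controls, with a line at the mean of 3. Brat1 lies between 2.70 and 3.17 CPM in knockouts and between 6.64 and 17.6 CPM in controls, and the groups lie closer together for the Integrator genes.

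The cleavage module holds the nuclease INTS11, its inactive relative INTS9 and the scaffold INTS4. Ints9 had 13.0, 15.1 and 13.1 CPM in the knockouts, against 22.9, 14.3 and 18.2 CPM in the controls. Ints4 had 37.3, 41.2 and 30.7 CPM in the knockouts, against 35.4, 44.0 and 54.4 CPM in the controls. The groups overlapped for both genes, through control 2 for Ints9 and control 1 for Ints4. The log2 fold change was −0.43 ± 0.25 (SE) for Ints9 and −0.30 ± 0.21 (SE) for Ints4, and neither was called by edgeR.

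INTS1, the largest subunit, INTS2 and INTS7 belong to the backbone of the complex. Ints1 had 34.5, 37.0 and 50.1 CPM in the knockouts, against 55.0, 52.0 and 48.5 CPM in the controls. Ints2 had 13.2, 14.0 and 19.0 CPM in the knockouts, against 22.2, 16.9 and 23.5 CPM in the controls. In both genes knockout 3 stood above the other knockouts and inside the range of the controls. Ints7 had 116, 84.4 and 95.4 CPM in the knockouts, against 106, 121 and 123 CPM in the controls, so its groups overlapped through knockout 1. The log2 fold changes were −0.35 ± 0.19, −0.44 ± 0.25 and −0.24 ± 0.16 (SE) for Ints1, Ints2 and Ints7, without a call by edgeR. Without knockout 3, where 0.0194% of all genes were called, Ints1 and Ints2 stood at −0.54 and −0.62 and were not called. By limma-voom, where 19.5% of all genes were called, Ints1 was called at −0.50. Ints2 shares 4.83% of its exon length with Brip1os, a gene on the other strand, and reads in the shared stretch could come from either.

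INTS6 and INTS8 hold the phosphatase PP2A on Integrator. Ints6 had 134, 135 and 163 CPM in the knockouts, against 241, 183 and 169 CPM in the controls. Ints8 had 32.7, 30.5 and 32.2 CPM in the knockouts, against 44.4, 46.4 and 43.1 CPM in the controls. The groups did not overlap for either gene, though knockout 3 came close to control 3 in Ints6. Ints8 averaged 31.8 ± 1.18 CPM in knockouts and 44.6 ± 1.68 CPM in controls (SD, n = 3 each), 71.3% of the control level. The log2 fold change was −0.49 ± 0.16 (SE) for Ints8 and −0.46 ± 0.18 (SE) for Ints6, and neither was called by edgeR. Both were called with limma-voom (−0.51 for Ints8 and −0.46 for Ints6), where 19.5% of all genes were. Both were also called with library size scaling (−0.75 for both), where 9.33% of all genes were. Ints8 shares 8.15% of its exon length with the cyclin gene Ccne2 on the other strand, which had 10.7 ± 2.66 CPM in knockouts and 8.68 ± 1.63 CPM in controls (SD, n = 3 each).

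INTS3 is also the scaffold of the SOSS complex, which binds single-stranded DNA at breaks. Ints3 had 23.8, 23.3 and 23.4 CPM in the knockouts, against 38.8, 25.5 and 29.1 CPM in the controls. The knockouts were nearly equal and lay below the lowest control, with a log2 fold change of −0.40 ± 0.21 (SE) and no call. INTS10 joins the arm of the complex formed with INTS13 and INTS14. Ints10 was the sole member with a higher mean in knockouts, at 44.8, 43.5 and 40.1 CPM, against 26.8, 32.3 and 38.9 CPM in the controls. Its groups did not overlap, its log2 fold change was 0.39 ± 0.19 (SE), and it was not called.

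**Figure D3:**
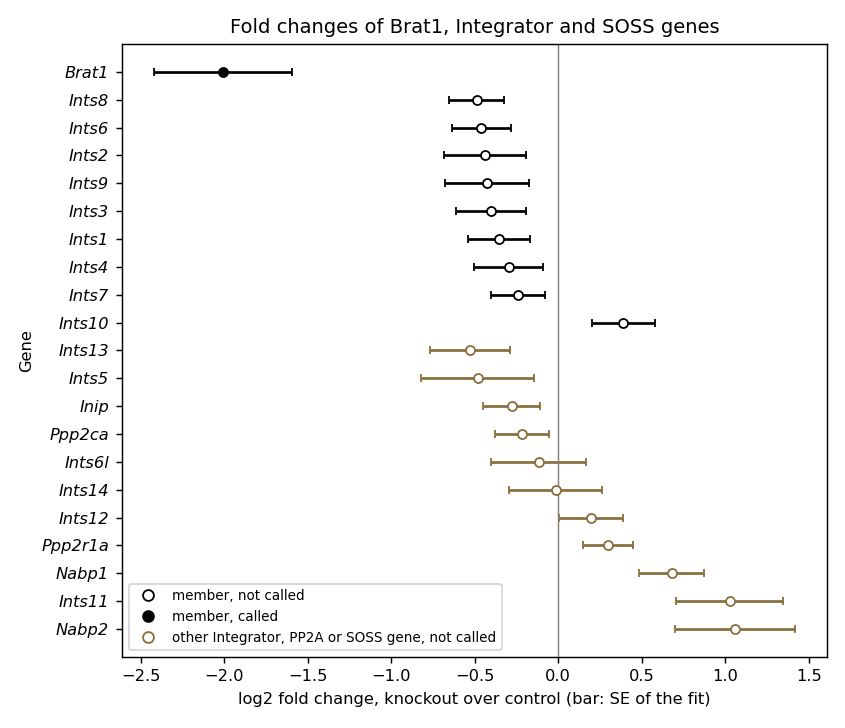
Log2 fold change, knockout over control, with the SE of the fit, for the 10 members (black) and for other Integrator, PP2A and SOSS genes (brown). Brat1 at −2.01 is the one filled, called point, 8 Integrator members lie between −0.49 and −0.24, and Ints10 lies at 0.39.

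Per length the members spanned a wide range of levels. In CPM per kb of exon, Ints7 was highest at 13.5 ± 2.19 in knockouts and 15.9 ± 1.29 in controls, followed in controls by Ints6 at 8.54 ± 0.979 in knockouts and 11.8 ± 2.28 in controls (SD, n = 3 each). Brat1 was lowest in both groups, at 0.467 ± 0.0411 in knockouts and 1.89 ± 0.894 in controls (SD, n = 3 each). In controls the order was Ints7, Ints6, Ints4, Ints8, Ints1, Ints3, Ints10, Ints9, Ints2 and Brat1. The ranges of Ints4 and Ints8, Ints8 and Ints1, Ints1 and Ints3, and Ints3 and Ints10 overlapped, as did those of Ints9 and Ints2 and of Ints2 and Brat1. In knockouts the order was Ints7, Ints6, Ints10, Ints4, Ints1, Ints8, Ints3, Ints9, Ints2 and Brat1, and the ranges were apart between the first 3 and from Ints3 downwards. The middle of the order depends on the length used. With the longest transcript as length, Ints4 stood above Ints10 in knockouts and overlapped Ints6 there, and Ints7 and Ints6 overlapped in controls, while Ints7 was still highest and Brat1 lowest in both groups. The ranges of Brat1 and Ints2 thus overlapped in controls, while Brat1 lay below Ints2 in knockouts. The highest member was 28.8-fold above the lowest in knockouts and 8.44-fold in controls.

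**Figure D4:**
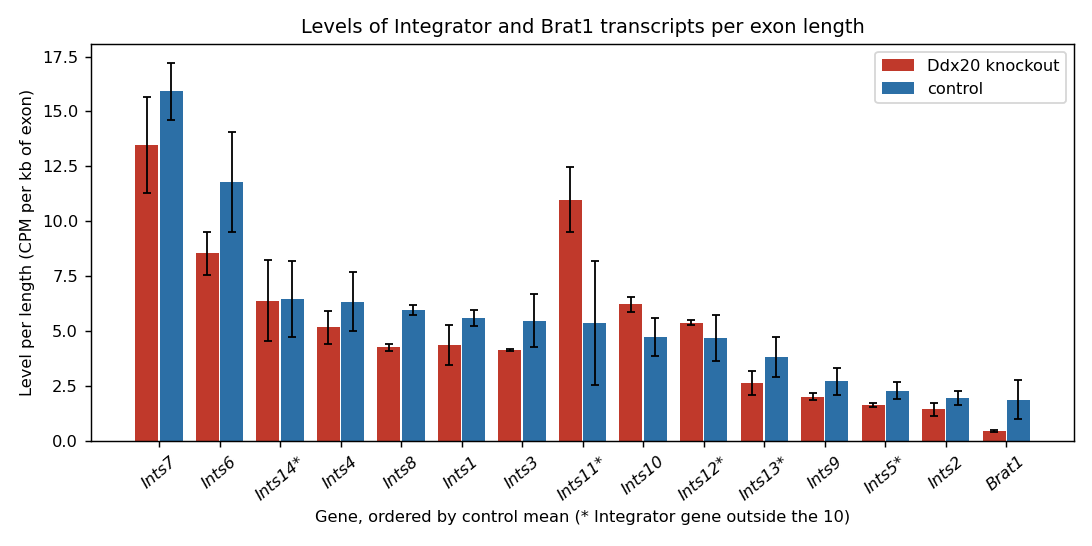
Mean level in CPM per kb of exon of the 10 members and of 5 further Integrator genes (asterisk), knockout bars left of control bars, with the SD over 3 libraries. Ints7 is highest and Brat1 lowest in both groups, and Ints11 stands at 11.0 in knockouts and 5.37 in controls.

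The Integrator and PP2A genes outside the 10 had log2 fold changes on both sides of 0, with a median of −0.07 over 8 genes and no call by edgeR. The nuclease gene Ints11 had 30.9, 31.3 and 38.9 CPM in the knockouts, against 10.7, 12.2 and 26.4 CPM in the controls. Each knockout lay above each control, with control 3 nearest to them. Its log2 fold change was 1.03 ± 0.32 (SE, edgeR adjusted p = 0.0899). Without control 3, where 5.27% of all genes were called, it was 1.55 with an adjusted p of 0.0232. Leaving out any other single library gave no call of Ints11. Ints11 shares 22.7% of its exon length with Pusl1 on the other strand, which had 17.0 ± 1.20 CPM in knockouts and 12.8 ± 1.37 CPM in controls (SD, n = 3 each). Ints5 and Ints13, the latter of the same arm as Ints10, had log2 fold changes of −0.48 ± 0.34 and −0.53 ± 0.24 (SE), with edgeR adjusted p values of 0.421 and 0.210. Ints12, which encodes a subunit with a PHD finger, stood at 0.20 ± 0.19 (SE) and Ints14 at −0.02 ± 0.28 (SE). Ints6l, the paralog of Ints6, stood at −0.12 ± 0.29 (SE), and the PP2A genes Ppp2r1a and Ppp2ca at 0.30 ± 0.15 and −0.22 ± 0.16 (SE). By edgeR, Ints11 passed without the filter on low counts (adjusted p = 0.0459), without control 3 and with the replicate number as a block (adjusted p = 0.0332). DESeq2, which called 11.1% of all genes, called Ints11, and limma-voom, which called 19.5%, called Ints11 and Ints13. With knockout 1 and 2 as 1 library, limma-voom, which then called 3.28%, called Ints11 (1.16, adjusted p = 0.0300). With that pair neither edgeR nor DESeq2 called a gene of this list.

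The partners of INTS3 in SOSS also split. Nabp1, which encodes a single-stranded DNA binding protein, had 44.7, 50.6 and 40.6 CPM in the knockouts, against 28.2, 33.4 and 23.4 CPM in the controls. Its relative Nabp2 had 17.7, 18.0 and 17.2 CPM in the knockouts, against 4.58, 7.21 and 13.4 CPM in the controls. In both genes the knockouts lay above the controls, with log2 fold changes of 0.68 ± 0.19 and 1.06 ± 0.36 (SE) and edgeR adjusted p values of 0.0712 and 0.110. Without control 3, where 5.27% of all genes were called, Nabp2 stood at 1.57 with an edgeR adjusted p of 0.0322. Leaving out any other single library gave no SOSS call by edgeR. Inip, which encodes a small SOSS subunit, stood at −0.28 ± 0.17 (SE) with an edgeR adjusted p of 0.352. DESeq2, which called 11.1% of all genes, called Nabp1 (adjusted p = 0.0283). Limma-voom, which called 19.5%, called Nabp1 and Nabp2 higher and Inip lower (adjusted p of 0.0115, 0.0139 and 0.0492). Neither called any of the 3 genes with the pair as 1 library.

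Among 14 genes for the first known partners of BRAT1 and for the kinases around them, edgeR called 2 lower in knockouts and 0 higher. The remaining 12 did not pass, and 2.8% of all genes were called lower. This list was chosen with earlier results of these data known, so nothing is read from that count. Bard1, whose product forms a ubiquitin ligase with BRCA1, had 6.60, 6.17 and 11.4 CPM in the knockouts, against 26.7, 25.2 and 22.6 CPM in the controls. Brca1 had 20.5, 19.8 and 22.1 CPM in the knockouts, against 50.4, 47.6 and 39.7 CPM in the controls. Both genes were lower in every knockout than in every control. Bard1 stood at −1.62 ± 0.29 on the log2 scale (SE, edgeR adjusted p = 0.0204) and Brca1 at −1.14 ± 0.18 (SE, edgeR adjusted p = 0.0146). Rad50, of the MRN break sensor, and Ndfip1, an adaptor of NEDD4 ubiquitin ligases, stood at −0.48 ± 0.15 and 0.61 ± 0.17 (SE), with edgeR adjusted p values of 0.0971 and 0.0603. Without control 3, where 5.27% of all genes were called, Ndfip1 stood at 0.75 with 0.0440. Leaving out any other single library gave no call of Ndfip1. DESeq2, which called 11.1% of all genes, called Ndfip1 higher (adjusted p = 0.00538). Limma-voom, which called 19.5%, called Ndfip1 higher and Rad50 lower (adjusted p of 0.00281 and 0.0169). Rad50 was also called lower by edgeR with library size scaling (0.0381), which called 9.33%. The median of the 14 genes was −0.30.

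Genes for the other machines that cut or pace transcripts contained 2 further calls, both lower in knockouts. Of 19 genes for the cleavage of mRNA 3′ ends, 2 fell, 0 rose and 17 did not pass (median −0.22), against 2.8% of all genes called lower. As this list was chosen in the same way, nothing is read from that count either. Cpsf7, a subunit of the cleavage factor CFIm, had 29.9 ± 1.54 CPM in knockouts and 56.2 ± 6.94 CPM in controls (SD, n = 3 each), and its log2 fold change was −0.91 ± 0.17 (SE, edgeR adjusted p = 0.0222). Rbbp6, a cleavage cofactor, had 60.0 ± 3.25 CPM in knockouts and 114 ± 40.9 CPM in controls (SD, n = 3 each), and its log2 fold change was −0.93 ± 0.22 (SE, edgeR adjusted p = 0.0429). Pcf11, a termination factor, and Cpsf6, the partner of Cpsf7 in CFIm, stood at −0.76 ± 0.23 and −0.64 ± 0.19 (SE), with edgeR adjusted p values of 0.0782 and 0.0824. Both were called by DESeq2 (adjusted p of 0.0393 and 0.0420) and by limma-voom (0.0315 and 0.0147). Library size scaling in edgeR also gave both calls (0.0459 and 0.0435). Of 19 genes for pausing and elongation 0 passed by edgeR (median −0.30), against 1 by DESeq2 and 4 by limma-voom, which called 11.1% and 19.5% of all genes. The elongation factor gene Supt6, the kinase gene Cdk9 and Hexim1, whose product inhibits that kinase, stood at −0.96 ± 0.26, −0.52 ± 0.17 and −0.85 ± 0.27 (SE), with edgeR adjusted p values of 0.0615, 0.0919 and 0.0922. Cdc73, of the PAF1 complex, stood at −0.69 ± 0.22 (SE, edgeR adjusted p = 0.0956). Supt6 was called by edgeR without the filter on low counts (adjusted p = 0.0353), where 4.25% of all genes were called. With library size scaling, where 9.33% were, edgeR called Supt6, Cdk9 and Hexim1 (adjusted p of 0.0356, 0.0453 and 0.0482).

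The 15 genes for snRNA transcription and export had no call by edgeR and a median of −0.40, with 11 below 0. Over all genes tested 4.83% were called and 49.7% lay below 0. The share of 4.83% also stands beside the edgeR counts of the histone and polymerase lists below. Ncbp1, of the cap-binding complex, and Snapc1, of the factor that opens snRNA genes, stood at −0.65 ± 0.17 and −0.76 ± 0.23 (SE), with edgeR adjusted p values of 0.0552 and 0.0777. Ice1, of the little elongation complex, stood at −0.47 ± 0.20 (SE) and Snapc2 at 0.46 ± 0.20 (SE), with edgeR adjusted p values of 0.188 and 0.203. Without control 3, Ncbp1 stood at −0.75 with an edgeR adjusted p of 0.0447, and without the filter on low counts at −0.65 with 0.0465. Those fits called 5.27% and 4.25% of all genes. Leaving out any other single library gave no call of Ncbp1. DESeq2, which called 11.1% of all genes, called Ncbp1 and Snapc1 lower (adjusted p of 0.0170 and 0.0366). Both were also called by limma-voom (0.00635 and 0.0102), which called 19.5%. So were they by edgeR with library size scaling (0.0314 and 0.0428), which called 9.33%. Of 7 genes for histone 3′ ends 0 were called by edgeR (median −0.08), and Npat, which encodes a coactivator of histone genes, came nearest with −0.71 ± 0.19 (SE) and an adjusted p of 0.0615. Without the filter on low counts Npat was called by edgeR (adjusted p = 0.0430), as it was with library size scaling (0.0374). DESeq2 and limma-voom also called Npat (adjusted p of 0.0214 and 0.0121). Casp8ap2 stood at −0.30 ± 0.14 (SE), Lsm11, of the U7 snRNP, at 0.36 ± 0.35 (SE) and Zfp473 at 0.79 ± 0.64 (SE). Of the 12 RNA polymerase II subunit genes 0 were called by edgeR (median −0.07), Polr2a, the largest, standing at −0.58 ± 0.24 (SE) and Polr2j at 0.41 ± 0.17 (SE). Polr2d and Polr2b stood at −0.28 ± 0.19 and −0.21 ± 0.15 (SE). Without control 2 the median of these 12 was 0.17. Without control 3 that of the histone list was 0.06.

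Over all 97 genes of these lists 4 were called, all lower in knockouts, against 4.83% of all genes tested. Nothing is read from that count, since the lists were chosen with earlier results known. The calls of all 4 were lost without knockout 1, 2 or 3 in turn and with knockout 1 and 2 counted as 1 library. Those fits called 0.0325%, 0.065%, 0.0194% and 0.00649% of all genes. The calls of Bard1, Cpsf7 and Rbbp6 were also lost without control 2, where 1.17% of all genes were called. Where a call was lost, the adjusted p by edgeR ran from 0.0552 to 0.176. Of the 97 genes, DESeq2 called 14, where 11.1% of all genes were called, and limma-voom 23, where 19.5% were. With the pair as 1 library DESeq2 called 4, where 5.45% of all genes were called, and limma-voom 5, where 3.28% were.

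**Figure D5:**
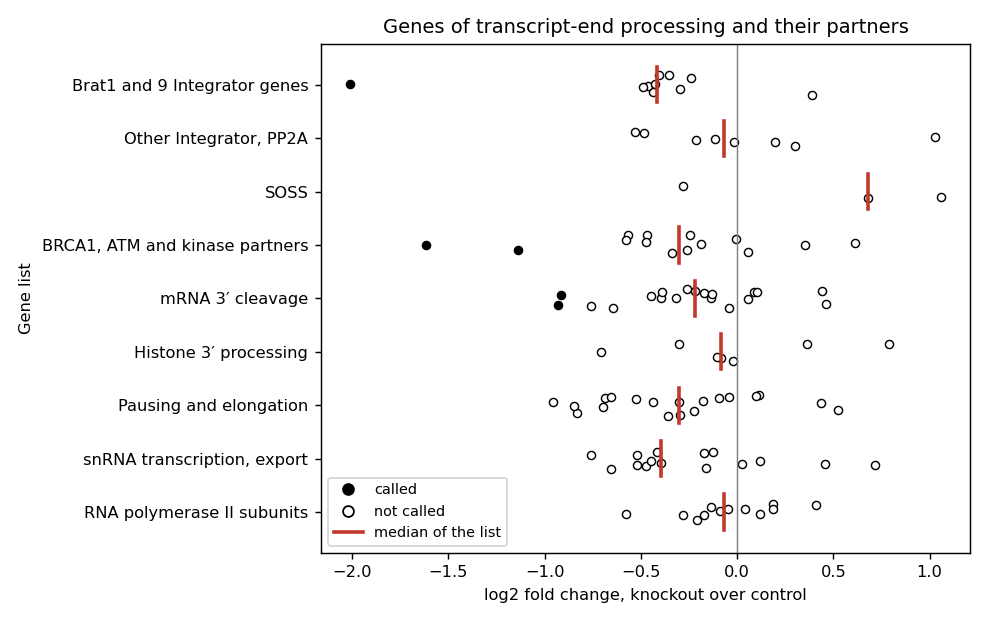
Log2 fold change, knockout over control, of each gene of the member group and of 8 lists of related genes, with the list's median as a red line; filled points are called. Apart from Brat1, the filled points are Bard1, Brca1, Cpsf7 and Rbbp6, all left of 0, and the medians run from −0.42 in the member group to 0.68 in SOSS.

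The genes whose pattern over the 6 libraries was most like that of Brat1 were found by the root mean square difference of centred log2 CPM (pseudocount 0.5) among all genes tested. In order they were Lpin3, a lipin phosphatase gene, at 0.142, Ddx20 at 0.201, the DNA polymerase theta gene Polq at 0.203, the zinc finger gene Zik1 at 0.231 and Nutm1 at 0.235. Lpin3 had 2.23, 2.36 and 1.62 CPM in knockouts 1, 2 and 3, against 12.4, 4.84 and 6.82 CPM in controls 1, 2 and 3. Their closeness to Brat1 over these same libraries is what they were picked for, so the highest level in control 1 and the lowest control level in control 2, which all 5 had, follow from that choice.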

How the data were processed

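RNA of 6 libraries of THY1-positive cells was reverse transcribed with an oligo-dT primer, amplified by SMART-seq2 without molecular identifiers and sequenced as paired reads of 150 bp, per the labels' protocols. The authors deposited raw counts of reads per Ensembl gene as whole numbers, with a sum column of counts and a column of means (treated here as a score) that were used in no test. Per the submitters' processing notes the build was mm10, with STAR 2.7.5c, Trimmomatic 0.39, edgeR, DESeq2 and StringTie 2.1.7 among the tools; for the counter, strand setting and filter, nothing is given in the sources used here. Symbols, positions and exon lengths came from GENCODE M21 (22562 of 22579 identifiers matched), and start regions from RefSeq.

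Counts were tested in edgeR 4.0.16 (R 4.3.3) by its quasi-likelihood F test, with TMM scaling, filterByExpr, robust dispersion and genotype as the sole term, and a gene was called where its p, adjusted by Benjamini-Hochberg over 14766 genes, was under 0.05. SE is the log2 fold change divided by the root of F. Alternatives were DESeq2 1.42.0, limma 3.58.1 (voom with quality weights), other scalings and filters, a block for the replicate number, leaving out each library, and knockout 1 and 2 as 1 library; the DESeq2 and voom fits of that last kind were added after seeing the data. Named genes were the members, Ddx20, all other Integrator, PP2A and SOSS genes, in each further list the 4 genes with the smallest p and all called genes, and the 5 genes most like Brat1. Genes named only beside these, such as overlapping genes and markers, fall outside that rule. Members and lists were chosen with earlier results of these data known. Which animal gave which library is not in the labels, so p-values measure only how far these samples spread, which may be technical. The snRNA genes themselves were not analysed here. Also, 1 gene of the pausing and elongation list is not reported here and was left out of its counts.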

Additional observations from a re-analysis of the deposited data

How the results depend on the processing

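The number of genes called was 713 by edgeR with TMM scaling, 1378 with library size scaling, 1641 by DESeq2, 2882 by limma-voom, 1 with knockout 1 and 2 as 1 library and 465 for that pair by DESeq2. Leaving out 1 library gave 3 to 839. Of the members, 1 was called in the main setting (4.83% of all genes), 3 with library size scaling (9.33%) and 4 by limma-voom (19.5%). With the pair as 1 library 0 were called by edgeR (0.00649% of all genes), DESeq2 (5.45%) or limma-voom (3.28%). Without 1 library 0 to 1 were called (0.0194% to 5.41% of all genes). Of the 97 listed genes, 4 were called in the main setting (4.83% of all genes) and 15 with library size scaling (9.33%). Without a filter on low counts 8 were called (4.25%), by DESeq2 14 (11.1%) and by limma-voom 23 (19.5%). With the pair as 1 library edgeR called 0 (0.00649%), and without 1 library 0 to 8 (0.0194% to 5.41%). The cause of these shifts was not tested.

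Brat1 kept its direction in every setting that gave an adjusted p, with a log2 fold change of −2.27 to −1.59 without 1 library, −2.01 with the pair as 1 library and −1.65 for that pair by limma-voom, the last 2 without a call. DESeq2 gave no adjusted p for Brat1 with that pair. The 9 Integrator members kept their directions in all 16 alternatives. By limma-voom Ints1, Ints6 and Ints8 were called, at −0.50, −0.46 and −0.51, and Ints6 and Ints8 with library size scaling, both at −0.75. The median of the 9 was −0.70 with library size scaling, −0.28 by limma-voom, −0.29 for the pair by limma-voom, and −0.45 to −0.31 without 1 library. With the longest transcript as length, the highest member was 7.21-fold above the lowest in controls.

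Libraries with the same number did not deviate together (correlations of 0.000853 to 0.0165). With 3 libraries per group this check cannot exclude a pairing, and the labels do not say which animal gave which library. With the replicate number as a block 683 genes were called, Brat1 stood at −1.91 with its call, and Ints11 was called at 1.13. At 29 to 35 reads of Brat1 in a knockout, depth limits how exactly its level is known.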

Other observations

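Ints7 differed between knockout 1 and knockout 2 although these libraries were otherwise much alike. It had 1248 reads in knockout 1 and 930 in knockout 2, a chi-square of 53.4 for the pair. Among the 14939 genes that had 20 reads or more over both, 17 had a higher value. The other 9 members had values of 0.0379 to 2.26. The gene was picked out after its values were seen, and the cause was not tested.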
